A study of Homo sapiens with 12 samples.

Results

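The genes of cholesterol and fatty acid synthesis were compared between LNCaPabl-Enza and LNCaPabl-Abi, a pair of sublines named after the human prostate cancer line LNCaP, and between dexamethasone and solvent within each line. The list named 35 genes by symbol, and 32 of them had a row among the 17687 genes measured. These were 17 enzymes of the sterol pathway, 11 enzymes that build or modify fatty acids, and 4 genes of regulation and transport. Each of the 32 had a single row. FDFT1, ELOVL1 and FADS1, the other 3, are not analysed here.

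Enza_Dex is LNCaPabl-Enza given 100 nM dexamethasone, a synthetic glucocorticoid, for 24 h, and Enza_Ctrl is LNCaPabl-Enza given the solvent DMSO for 24 h. Abi_Dex and Abi_Ctrl are LNCaPabl-Abi with the same treatments. Each group held 3 arrays, and values are listed in the order of replicates 1, 2 and 3. The labels call the lines epithelial but do not spell out Abi and Enza, and the growth protocol describes LNCaP in medium with fetal calf serum. Each name stands for a single subline, so a difference between the lines cannot be told apart from a difference between any pair of LNCaP sublines. The replicates are not described as separate cultures, so p-values measure only the spread between these arrays.

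Cells make cholesterol from acetyl-CoA through mevalonate. Isoprenoid units are joined into farnesyl diphosphate and squalene, which is closed into the sterol ring and trimmed to cholesterol. Fatty acids are made from the same acetyl-CoA, then desaturated and elongated. Many genes of both branches are targets of the sterol regulatory element binding proteins encoded by SREBF1 and SREBF2, which INSIG1 retains in the endoplasmic reticulum when sterols are plentiful. In prostate cancer cells, androgens are known to raise many of these genes.

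Levels are deposited log2 values, where a difference of 1 is a 2-fold difference. Each fold is on that deposited scale, and in bulk samples fewer cells of a type and less RNA per cell cannot be told apart. Enza_Ctrl replicate 2 stood apart, with a median Pearson r across genes of 0.873 with the other arrays, against 0.987 to 0.991 for each of the other 11. Its background probes had a median of 5.77, against 3.95 to 3.98 on the others. Over genes, the residual SD had a median of 0.43 with 12 arrays and of 0.26 without this array. The fit uses a common spread for the 4 groups, so this array also enters the error of comparisons that hold none of its values. Comparisons are therefore given with 12 arrays and with the 11 arrays that leave it out, and a value given once for dexamethasone between the lines, or within LNCaPabl-Abi, is the same in both fits apart from its error and p. On those 11 arrays every member lay above the background, with ELOVL7 lowest at 5.28. Epithelial markers had mean levels of 12.19 to 12.66 in Enza_Dex arrays, 11.76 to 12.18 in Enza_Ctrl arrays without replicate 2, 12.20 to 12.25 in Abi_Dex arrays and 11.57 to 11.92 in Abi_Ctrl arrays (5 of 5 genes measured). Prostate luminal markers (5 of 7 genes measured) had mean levels of 10.66 to 11.18 in Enza_Dex arrays, 10.31 to 10.52 in Enza_Ctrl arrays without replicate 2, 11.08 to 11.78 in Abi_Dex arrays and 10.10 to 10.52 in Abi_Ctrl arrays, and their part in the results was not tested. The luminal markers HOXB13, TMPRSS2 and FOLH1 were at 11.03 or above on those arrays, while KLK2 did not exceed 6.87 and KLK3 had 6.63 to 9.88. The epithelial marker KRT19 was also low, at 5.99 to 8.55. Fibroblast, endothelial and immune markers had highest levels of 8.6, 5.3 and 7.7 on those arrays. The 4 adipocyte markers, of a cell type rich in these enzymes, did not exceed 4.60 on any of them.

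Promoter sequences are shown for HMGCS1, IDI1 and INSIG1, which passed the test between the lines with all 12 arrays and had a window in the RefSeq table, and for SREBF2, which encodes a regulator of this pathway. ACAT2 passed the same test and is named only. Each window is in GRCh38.p14, reads 5′ to 3′ along the gene and runs from 250 bases before to 50 bases after the transcription start. HMGCS1 lies on the minus strand at chr5:43313363-43313662, IDI1 on the minus strand at chr10:1048837-1049136, INSIG1 on the plus strand at chr7:155297628-155297927 and SREBF2 on the plus strand at chr22:41832855-41833154. Capitals mark the CCAAT box, bound by NF-Y, and CACNCCAC, the core of the sterol regulatory element, on either strand (a CCAAT box on the opposite strand reads ATTGG).
HMGCS1: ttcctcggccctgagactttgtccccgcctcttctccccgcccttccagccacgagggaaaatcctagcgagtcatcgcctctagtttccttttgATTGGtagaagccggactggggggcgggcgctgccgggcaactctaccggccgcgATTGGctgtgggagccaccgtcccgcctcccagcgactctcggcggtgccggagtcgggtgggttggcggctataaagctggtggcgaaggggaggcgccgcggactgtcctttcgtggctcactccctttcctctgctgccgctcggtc
IDI1: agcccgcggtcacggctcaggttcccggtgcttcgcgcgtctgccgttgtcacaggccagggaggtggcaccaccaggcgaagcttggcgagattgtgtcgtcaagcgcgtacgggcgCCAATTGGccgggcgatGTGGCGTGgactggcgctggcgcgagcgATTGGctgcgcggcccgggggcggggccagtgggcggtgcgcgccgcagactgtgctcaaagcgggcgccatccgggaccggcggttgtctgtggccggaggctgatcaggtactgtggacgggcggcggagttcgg
INSIG1: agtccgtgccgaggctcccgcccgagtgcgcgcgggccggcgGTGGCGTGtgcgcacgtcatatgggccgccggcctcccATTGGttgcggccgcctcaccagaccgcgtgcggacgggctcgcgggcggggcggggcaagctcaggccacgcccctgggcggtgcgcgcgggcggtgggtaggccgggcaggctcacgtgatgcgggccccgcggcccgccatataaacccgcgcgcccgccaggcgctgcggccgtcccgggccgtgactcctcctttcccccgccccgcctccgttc
SREBF2: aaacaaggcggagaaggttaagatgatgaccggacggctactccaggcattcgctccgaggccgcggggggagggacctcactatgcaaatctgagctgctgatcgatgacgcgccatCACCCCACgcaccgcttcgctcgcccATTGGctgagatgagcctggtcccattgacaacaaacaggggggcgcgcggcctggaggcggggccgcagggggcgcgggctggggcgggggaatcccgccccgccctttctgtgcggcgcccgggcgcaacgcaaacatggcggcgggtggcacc
HMGCS1 has 2 windows in the RefSeq table and IDI1 has 3, and for each the window with the most CCAAT boxes is shown. The CCAAT counts of these genes are thus the highest of their windows. In the windows shown, HMGCS1 had 2 CCAAT boxes and no CACNCCAC match. IDI1 had 3 CCAAT boxes, of which 2 overlap in the run CCAATTGG, and 1 CACNCCAC match. INSIG1 and SREBF2 had 1 match of each kind. The SREBF2 match was the only window of a member with the longer form TCACNCCAC.

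Of the 32 measured members, 29 had 1 or more windows, 39 in all. A CCAAT box on either strand was found in 27 of the 39 (69.2%), against 34.6% of the 35116 windows in the table. CACNCCAC was found in 7 of 39 (17.9%), against 5.87% of all windows. TCACNCCAC, which contains CACNCCAC, was found in 1 of 39 (2.56%), against 1.13% of all windows. The E-box CACGTG was found in 5 of 39 (12.8%), against 7.26%. The glucocorticoid response element, searched as AGAACA and TGTNCT with 3 bases between them, was in 0 of the 39 windows and in 0.0456% of all windows. These matches describe letters in short windows and do not show binding, and several windows belong to the same gene.

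**Figure D1:**
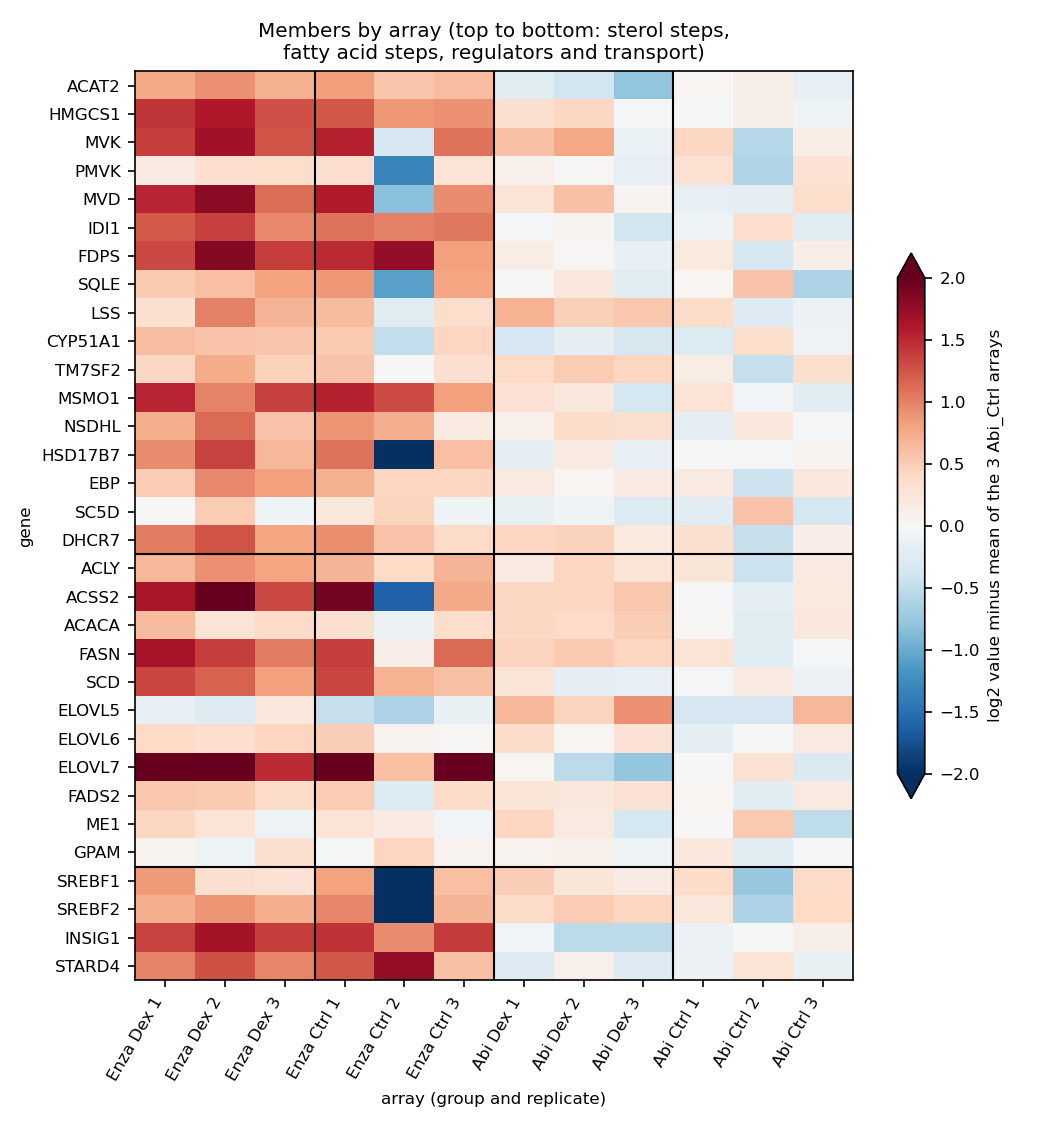
Level of each of the 32 members on each of the 12 arrays, as log2 value minus the mean of the 3 Abi_Ctrl arrays, with red above and blue below and colours ending at 2 and -2. The Enza arrays are red for most sterol steps and for INSIG1, and Enza_Ctrl replicate 2 differs from its neighbours, with SREBF2 at 4.80.

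With dexamethasone, the sterol genes were higher in LNCaPabl-Enza than in LNCaPabl-Abi. The median difference of the 17 sterol steps, Enza_Dex minus Abi_Dex, was 0.86 on the log2 scale, against -0.01 over all genes. All 17 differences were positive, against 48.6% of all genes, although LSS and TM7SF2 turned to -0.08 and -0.01 when Enza_Dex replicate 2 was left out. The 11 fatty acid steps had a median difference of 0.23, with 10 positive differences, and the 4 genes of regulation and transport had a median of 0.78, with 4 positive.

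With 12 arrays, 4 of the 32 members passed limma's test at an adjusted p under 0.05, and all 4 were higher in Enza_Dex: INSIG1, ACAT2, HMGCS1 and IDI1. Of all genes, 0.277% were called in this comparison with 0.124% called higher and 0.153% called lower. With 11 arrays, 14 members were called and all were higher, namely 8 sterol steps, 4 fatty acid steps, INSIG1 and STARD4, where 2.28% of all genes were called and 0.752% were called higher. A fit to only the 6 arrays compared called 15 members, the same 14 and MVK, where 2.84% of all genes were called and 0.950% were called higher. The groups did not overlap, with Enza_Dex above, for 23 of 32 members, against 9.43% of all genes, and with Enza_Dex below for 1 member, against 10.7% of all genes.

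**Figure D2:**
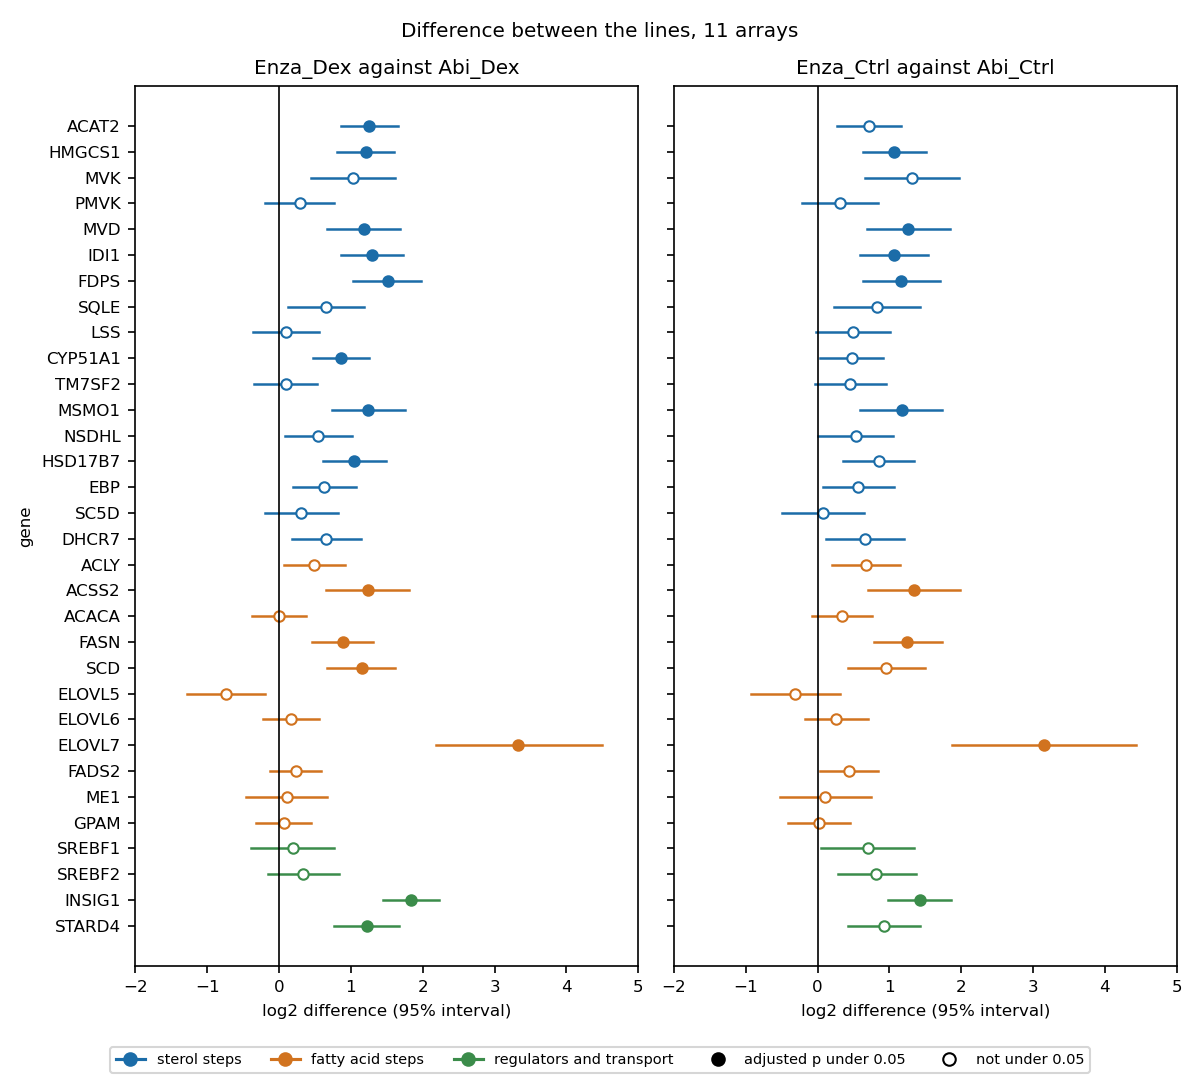
Difference between the lines for each of the 32 members, fitted with 11 arrays, with dexamethasone (left) and with DMSO (right), in log2 units with 95% intervals. Filled points passed an adjusted p under 0.05 over all genes: 14 members with dexamethasone and 9 with DMSO, all to the right of 0.

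INSIG1, the endoplasmic reticulum protein that retains the sterol-sensing complex and is itself a target of it, had 13.00, 13.32 and 13.03 in Enza_Dex, against 11.60, 11.13 and 11.12 in Abi_Dex. The lowest Enza_Dex array lay above the highest Abi_Dex array. The difference was 1.83 ± 0.23 (SE with 12 arrays), or 3.57-fold. Its adjusted p was 0.0088 with 12 arrays and 4.93e-05 with 11. STARD4, a carrier of free cholesterol between membranes, had 8.35, 8.63 and 8.32 in Enza_Dex, against 7.10, 7.45 and 7.10 in Abi_Dex. Its groups were also apart, by a difference of 1.22 (2.33-fold, adjusted p = 0.193 with 12 arrays and 0.00499 with 11).

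The transcription factors differed less. SREBF2, which drives the sterol branch, had 11.36, 11.51 and 11.36 in Enza_Dex, against 11.01, 11.13 and 11.05 in Abi_Dex, close but not overlapping. The difference of 0.34 had a 95% interval of -0.15 to 0.83 with 11 arrays and did not pass (adjusted p = 0.652). SREBF1, which drives the fatty acid branch, had 14.67, 14.13 and 14.11 in Enza_Dex, against 14.30, 14.05 and 13.98 in Abi_Dex, and these overlapped. Its difference was 0.19, with an interval of -0.39 to 0.77 (adjusted p = 0.882 with 11 arrays).

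Among the 17 sterol steps, ACAT2, HMGCS1 and IDI1 were called with all arrays. ACAT2, the cytosolic thiolase that condenses acetyl-CoA, had 10.44, 10.60 and 10.40 in Enza_Dex, against 9.45, 9.33 and 8.90 in Abi_Dex. Each Enza_Dex array exceeded each Abi_Dex array, and the difference was 1.25 ± 0.21 (SE with 12 arrays), or 2.39-fold. Its adjusted p was 0.0426 with 12 arrays and 0.00158 with 11. HMGCS1, the HMG-CoA synthase that feeds mevalonate formation, had 12.61, 12.78 and 12.47 in Enza_Dex, against 11.50, 11.59 and 11.14 in Abi_Dex. It too was separated, with a difference of 1.21 ± 0.21 (SE with 12 arrays), or 2.31-fold. The adjusted p was 0.049 with 12 arrays and 0.00205 with 11. IDI1, the isopentenyl diphosphate isomerase, had 14.11, 14.25 and 13.85 in Enza_Dex, against 12.86, 12.95 and 12.52 in Abi_Dex. Its groups lay well apart, by 1.29 ± 0.23 (SE with 12 arrays), or 2.45-fold. The adjusted p was 0.049 with 12 arrays and 0.00224 with 11.

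These 4 calls were sensitive to the arrays used. Leaving out Enza_Dex replicate 2 or Abi_Dex replicate 2 from the 12 left 0 members called, and leaving out any other array but Enza_Ctrl replicate 2 left 1 or 2. Over all genes, 12 to 403 were called with each of the 12 arrays left out in turn, the 403 without Enza_Ctrl replicate 2. INSIG1 passed limma's test under 14 of 16 alternatives, with adjusted p-values up to 0.0712 and differences of 1.73 to 1.99. The 16 were each array left out, a replicate block on 11 arrays, array weights, quantile normalization and median centring. IDI1 passed under 6 of the 16, with adjusted p-values up to 0.281. ACAT2 and HMGCS1 each passed under 4, with adjusted p-values up to 0.243 and 0.281. With 11 arrays, leaving out a further array gave 7 to 15 called members, the lowest without Enza_Dex replicate 1, 8 without Enza_Dex replicate 2 or Abi_Dex replicate 3, and 9 without Abi_Dex replicate 1. The matching counts over all genes were not computed, so a general loss of calls cannot be set apart from a loss among members.

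Of the other enzymes up to farnesyl diphosphate, MVD and FDPS were called with 11 arrays only. MVD, the decarboxylase that forms isopentenyl diphosphate, had 9.41, 9.69 and 8.99 in Enza_Dex, against 8.15, 8.46 and 7.94 in Abi_Dex, without overlap. The difference of 1.18 (2.27-fold) had an adjusted p of 1.00 with 12 arrays, where MVD was at 7.04 on Enza_Ctrl replicate 2, and of 0.0152 with 11. FDPS, which makes farnesyl diphosphate, had 12.42, 12.93 and 12.47 in Enza_Dex, against 11.24, 11.11 and 10.95 in Abi_Dex. This was the highest difference among the sterol steps, 1.51 (2.84-fold), with an adjusted p of 0.063 with 12 arrays and 0.00158 with 11. The mevalonate kinase MVK had a difference of 1.03 (adjusted p = 0.0722 with 11 arrays), and the phosphomevalonate kinase PMVK one of 0.29 (adjusted p = 0.722).

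Among the enzymes that act on squalene and the sterol ring, MSMO1, HSD17B7 and CYP51A1 passed with 11 arrays. MSMO1, a methylsterol oxidase, had 16.63, 16.10 and 16.48 in Enza_Dex, against 15.39, 15.33 and 14.76 in Abi_Dex. The groups were apart, by 1.24 (2.36-fold, adjusted p = 0.147 with 12 arrays and 0.0112 with 11). HSD17B7, a ketosteroid reductase of the same demethylation steps, had 9.83, 10.23 and 9.55 in Enza_Dex, against 8.70, 9.04 and 8.72 in Abi_Dex. Its groups did not overlap, and the difference was 1.05 (2.07-fold, adjusted p = 1.00 with 12 arrays and 0.0123 with 11). CYP51A1, the lanosterol demethylase, had 12.89, 12.85 and 12.83 in Enza_Dex, against 11.94, 12.09 and 11.96 in Abi_Dex. Its arrays agreed closely within each group, and the difference was 0.86 (1.82-fold, adjusted p = 0.633 with 12 arrays and 0.0196 with 11).

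LSS and TM7SF2 lay at the other end. LSS, which closes the sterol ring, had 10.17, 10.86 and 10.53 in Enza_Dex, against 10.55, 10.33 and 10.39 in Abi_Dex, fully mixed. TM7SF2, a sterol reductase, had 13.53, 13.86 and 13.58 in Enza_Dex, against 13.52, 13.62 and 13.55 in Abi_Dex. Each had a difference of 0.09, with intervals of -0.36 to 0.55 for LSS and -0.35 to 0.53 for TM7SF2 with 11 arrays. SQLE, NSDHL, EBP and DHCR7 had differences of 0.65, 0.54, 0.63 and 0.66 and groups that did not overlap, and none was called with 11 arrays (adjusted p = 0.280, 0.321, 0.164 and 0.204). SC5D, a desaturase near the end of the pathway, had 10.68, 11.19 and 10.61 in Enza_Dex, against 10.54, 10.62 and 10.41 in Abi_Dex, with overlap. Divided after these values were seen, the 7 enzymes up to farnesyl diphosphate had a median difference of 1.21 and the 10 from squalene on a median of 0.64, a contrast that was not tested.

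**Figure D3:**
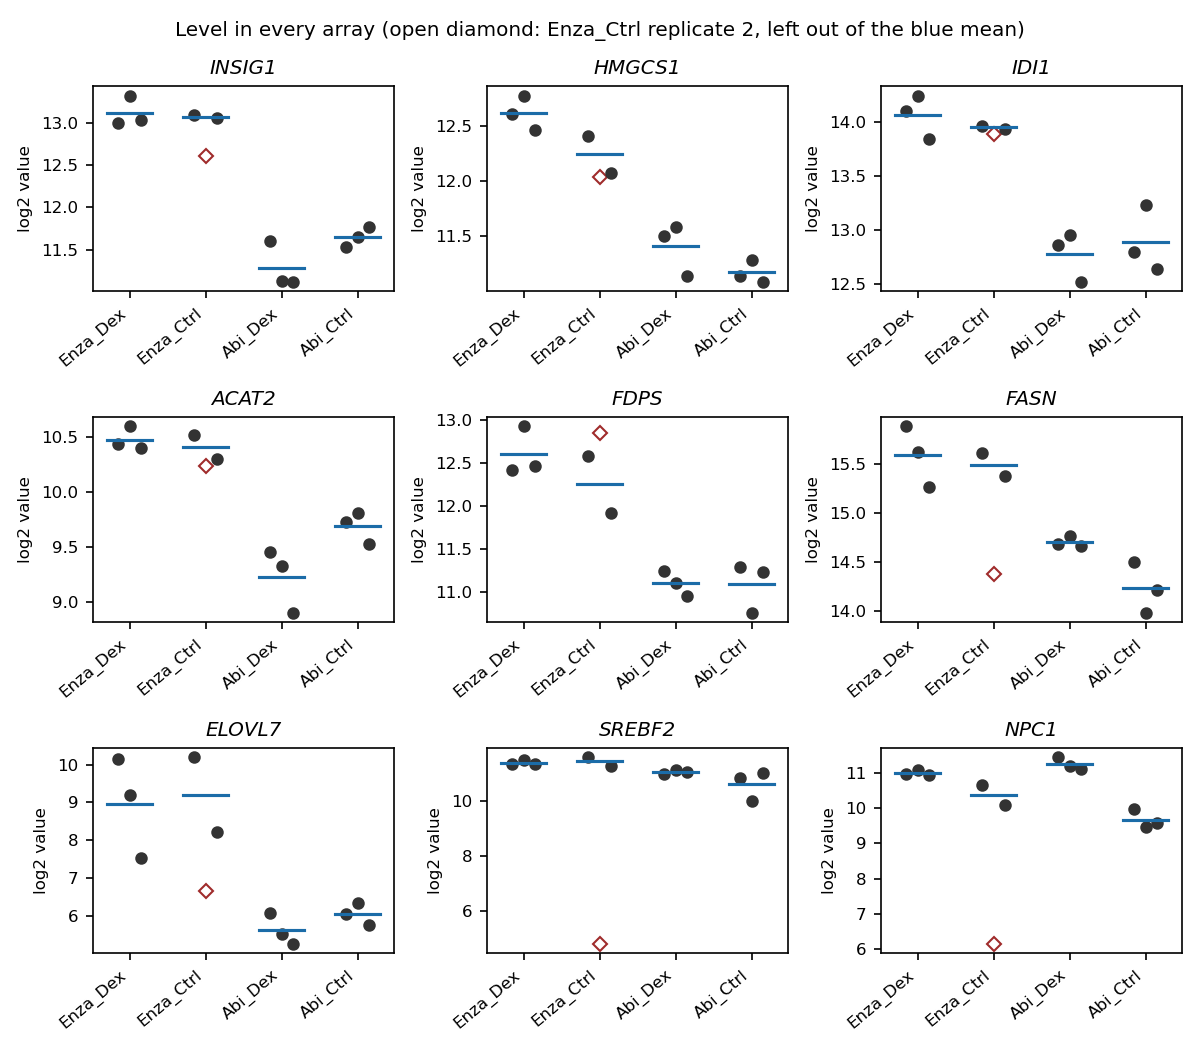
Log2 value of 7 members named in the text, of SREBF2 and of the sterol transporter NPC1 on each of the 12 arrays, each panel with its own axis. Points are arrays, blue bars are group means without Enza_Ctrl replicate 2, and that array is the open diamond; INSIG1 in Enza_Dex is at 13.00 to 13.32, above 11.12 to 11.60 in Abi_Dex.

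The fatty acid genes were more uneven. ELOVL7, an elongase of long-chain acyl-CoA, had 10.16, 9.20 and 7.54 in Enza_Dex, against 6.09, 5.53 and 5.28 in Abi_Dex. The groups did not overlap, but the Enza_Dex arrays spanned a wide range, and the difference of 3.33 ± 0.54 (SE with 11 arrays), or 10.1-fold, had an adjusted p of 0.193 with 12 arrays and 0.00318 with 11. ELOVL7 was the dimmest member, so its fold rests on low levels in LNCaPabl-Abi. FASN, the multienzyme that makes palmitate, had 15.88, 15.62 and 15.26 in Enza_Dex, against 14.68, 14.76 and 14.66 in Abi_Dex. All Enza_Dex arrays were higher, by 0.89 (1.85-fold, adjusted p = 0.787 with 12 arrays and 0.0285 with 11).

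SCD, the desaturase that makes oleate, had 15.85, 15.70 and 15.34 in Enza_Dex, against 14.78, 14.32 and 14.36 in Abi_Dex. Its groups were apart, by 1.15 (2.22-fold, adjusted p = 0.159 with 12 arrays and 0.0113 with 11). ACSS2, which makes acetyl-CoA from acetate, had 9.28, 9.77 and 8.97 in Enza_Dex, against 8.06, 8.07 and 8.19 in Abi_Dex. These did not overlap, and the difference was 1.24 (2.35-fold, adjusted p = 1.00 with 12 arrays and 0.0233 with 11). ELOVL5, an elongase of polyunsaturated fatty acids, ran the other way, with 13.63, 13.54 and 14.02 in Enza_Dex, against 14.45, 14.24 and 14.71 in Abi_Dex. Each Enza_Dex array was lower, and the difference of -0.74 (0.601-fold) was not called (adjusted p = 0.215 with 11 arrays). ACLY, which makes acetyl-CoA from citrate, had a difference of 0.49 with groups apart (adjusted p = 0.317). ACACA, ELOVL6, FADS2, ME1 and GPAM had differences of 0.00 to 0.23 and adjusted p-values of 0.707 to 0.999 with 11 arrays.

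**Figure D4:**
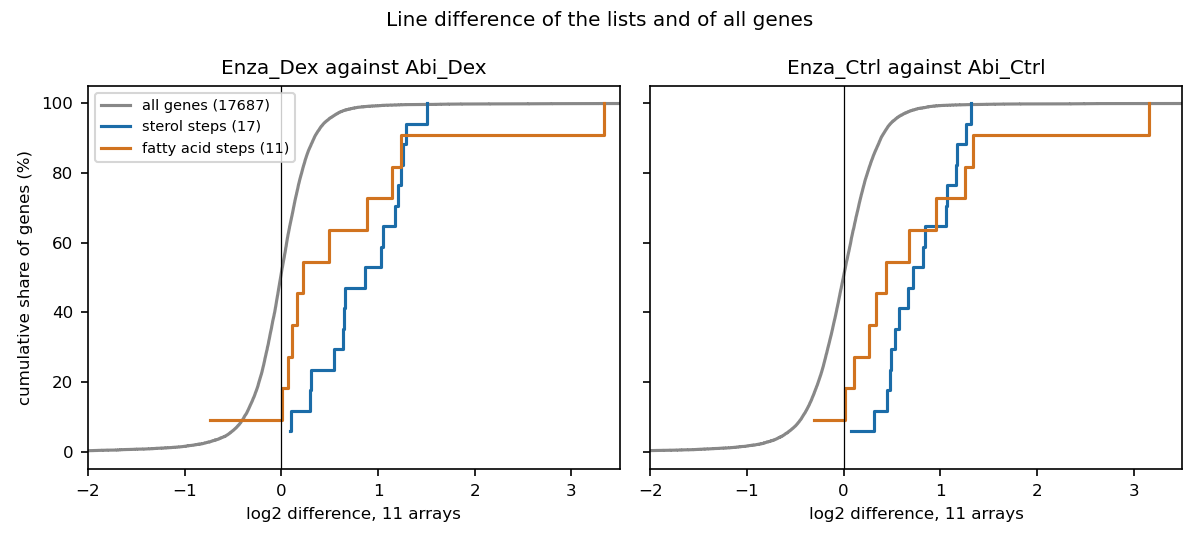
Cumulative share of genes (%) against the log2 difference between the lines, fitted with 11 arrays, with dexamethasone (left) and with DMSO (right), for 17 sterol steps, 11 fatty acid steps and all 17687 genes. The sterol curve lies right of 0 throughout, with medians of 0.86 and 0.72, while the fatty acid curve, with medians of 0.23 and 0.44, starts left of 0 with ELOVL5.

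With DMSO, the lines differed in the same direction on arrays that the dexamethasone comparison did not use, although Enza_Ctrl replicate 2 set how much passed. With 12 arrays the sterol steps had a median difference, Enza_Ctrl minus Abi_Ctrl, of 0.56 and the fatty acid steps of 0.20, against -0.03 over all genes. With 11 arrays these medians were 0.72 and 0.44, against 0.00 over all genes, and 31 of 32 differences were positive. In both treatments 31 members then had a positive difference and 1, ELOVL5, a negative one, while 62.4% of all genes had the same sign in both. Some of the positive differences were near 0, such as 0.00 for ACACA with dexamethasone and 0.02 for GPAM with DMSO. With 12 arrays the shares with the same sign were 87.5% of members and 55.2% of all genes.

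With 12 arrays 0 members were called by limma in this comparison, where 0.266% of all genes were called and 0.0565% were called higher. An unadjusted p under 0.05 was found for 14 of 32 members, against 1999 of all 17687 genes. With 11 arrays, 9 members were called, all higher, where 1.29% of all genes were called and 0.334% were called higher. All 9 were also among the 14 called with dexamethasone. Both comparisons use the same spread for a gene, and the matching overlap over all genes was not computed. The 9 called members were the sterol enzymes HMGCS1, MVD, IDI1, FDPS and MSMO1, the fatty acid enzymes ACSS2, FASN and ELOVL7, and INSIG1. With a further array of another group left out, the count ran from 4 without Abi_Ctrl replicate 2 to 10 without Abi_Dex replicate 3. Leaving out a further Enza_Ctrl array leaves a single array in that group, so those counts are not given. The matching counts over all genes were not computed. The groups did not overlap, with Enza_Ctrl above, for 12 members with 12 arrays and 24 members with 11, against 5.95% and 11.5% of all genes. With Enza_Ctrl below, this held for 0 members in either set, against 8.22% of all genes with 12 arrays and 12.5% with 11.

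INSIG1 had 13.09, 12.60 and 13.05 in Enza_Ctrl, against 11.53, 11.65 and 11.77 in Abi_Ctrl. All Enza_Ctrl arrays, replicate 2 included, were higher. The difference was 1.26 (2.40-fold, adjusted p = 0.0541) with 12 arrays and 1.42 (2.68-fold, adjusted p = 0.0022) with 11. STARD4 had 8.60, 9.11 and 7.94 in Enza_Ctrl, against 7.23, 7.62 and 7.2 in Abi_Ctrl. The groups were apart, and the difference was 1.2 with 12 arrays (adjusted p = 0.176) and 0.92 with 11 (adjusted p = 0.0834).

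SREBF2 had 11.60, 4.80 and 11.30 in Enza_Ctrl, against 10.85, 10.01 and 11.02 in Abi_Ctrl. Its difference was -1.39 with 12 arrays and 0.82 with 11 (adjusted p = 0.176), so replicate 2 set its direction. SREBF1 had 14.62, 11.70 and 14.41 in Enza_Ctrl, against 14.18, 13.06 and 14.20 in Abi_Ctrl. Its direction turned in the same way, from -0.24 with 12 arrays to 0.70 with 11 (adjusted p = 0.388).

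HMGCS1 had 12.41, 12.04 and 12.08 in Enza_Ctrl, against 11.14, 11.29 and 11.09 in Abi_Ctrl. Every Enza_Ctrl array was above, and the difference of 1.00 with 12 arrays (adjusted p = 0.107) was 1.07 with 11 (2.10-fold, adjusted p = 0.017). IDI1 had 13.97, 13.89 and 13.94 in Enza_Ctrl, against 12.80, 13.23 and 12.64 in Abi_Ctrl. The 3 Enza_Ctrl arrays lay within a narrow range above all Abi_Ctrl arrays, and the difference was 1.04 with 12 arrays (adjusted p = 0.115) and 1.06 with 11 (2.09-fold, adjusted p = 0.029). FDPS had 12.59, 12.85 and 11.92 in Enza_Ctrl, against 11.29, 10.76 and 11.23 in Abi_Ctrl. Here replicate 2 was the highest array, and the difference was 1.36 with 12 arrays (adjusted p = 0.0968) and 1.16 with 11 (2.24-fold, adjusted p = 0.0333). ACAT2 had 10.52, 10.24 and 10.30 in Enza_Ctrl, against 9.73, 9.81 and 9.53 in Abi_Ctrl. Its groups did not overlap, but the difference, 0.66 with 12 arrays (adjusted p = 0.360) and 0.72 with 11 (adjusted p = 0.140), was not called.

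MVD had 9.46, 7.04 and 8.83 in Enza_Ctrl, against 7.72, 7.69 and 8.23 in Abi_Ctrl. Replicate 2 lay below all Abi_Ctrl arrays, and the difference was 0.56 with 12 arrays (adjusted p = 0.511) and 1.26 with 11 (2.40-fold, adjusted p = 0.0306). MSMO1 had 16.64, 16.41 and 15.92 in Enza_Ctrl, against 15.38, 15.05 and 14.89 in Abi_Ctrl. The groups were apart with or without replicate 2, by 1.21 with 12 arrays (adjusted p = 0.135) and 1.17 with 11 (2.25-fold, adjusted p = 0.0477). HSD17B7 had 9.97, 5.64 and 9.49 in Enza_Ctrl, against 8.87, 8.84 and 8.94 in Abi_Ctrl. Its difference was -0.52 with 12 arrays and 0.85 with 11, where it was not called (adjusted p = 0.111). CYP51A1 had 12.80, 11.79 and 12.71 in Enza_Ctrl, against 12, 12.63 and 12.21 in Abi_Ctrl, and its difference, 0.16 with 12 arrays (adjusted p = 0.743) and 0.48 with 11 (adjusted p = 0.377), was not called. Across the pathway the 7 enzymes up to farnesyl diphosphate had a median difference of 0.76 with 12 arrays and 1.07 with 11. The 10 from squalene on had a median of 0.27 with 12 arrays and 0.55 with 11.

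FASN had 15.61, 14.37 and 15.37 in Enza_Ctrl, against 14.50, 13.98 and 14.21 in Abi_Ctrl. Without replicate 2, which fell among the Abi_Ctrl values, the groups were apart by 1.25 (2.39-fold, adjusted p = 0.00953), and with it the difference was 0.88 (adjusted p = 0.419). ELOVL7 had 10.19, 6.66 and 8.23 in Enza_Ctrl, against 6.05, 6.35 and 5.76 in Abi_Ctrl. All Enza_Ctrl arrays were higher but ranged widely, and the difference was 2.31 with 12 arrays (4.95-fold, adjusted p = 0.406) and 3.16 with 11 (8.91-fold, adjusted p = 0.0163). ACSS2 had 9.56, 6.03 and 8.40 in Enza_Ctrl, against 7.63, 7.46 and 7.84 in Abi_Ctrl. Its difference was 0.36 with 12 arrays (adjusted p = 0.750) and 1.34 with 11 (2.53-fold, adjusted p = 0.0417). SCD had 15.85, 15.22 and 15.11 in Enza_Ctrl, against 14.48, 14.68 and 14.40 in Abi_Ctrl. Its groups did not overlap, and the difference, 0.87 with 12 arrays (adjusted p = 0.307) and 0.96 with 11 (adjusted p = 0.090), was not called. ELOVL5 had 13.34, 13.17 and 13.64 in Enza_Ctrl, against 13.46, 13.46 and 14.46 in Abi_Ctrl, with overlap and a difference of -0.41 with 12 arrays (adjusted p = 0.459) and -0.31 with 11 (adjusted p = 0.772).

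Dexamethasone itself changed 0 members by the test. In LNCaPabl-Enza, the response of the sterol steps, Enza_Dex minus Enza_Ctrl, had a median of 0.39 with 12 arrays and 0.13 with 11, and that of the fatty acid steps 0.25 and 0.10, against 0.06 and 0.00 over all genes. In LNCaPabl-Abi, the response of the sterol steps, Abi_Dex minus Abi_Ctrl, had a median of 0.05 and that of the fatty acid steps 0.25, against 0.00 over all genes. limma called 0 of 32 members in LNCaPabl-Enza, where 0.0% of all genes were called with either set of arrays. There 0 members had an unadjusted p under 0.05, against 700 of all 17687 genes with 12 arrays and 530 with 11. In LNCaPabl-Abi limma called 0 of 32, where 0.0283% of all genes were called with 12 arrays and 0.141% with 11. An unadjusted p under 0.05 was found for 1 member with 12 arrays and 6 with 11, against 241 and 1254 of all 17687 genes. In LNCaPabl-Enza the groups did not overlap for 2 members, HMGCS1 and CYP51A1, with Enza_Dex above, against 3.96% of all genes with 12 arrays and 7.93% with 11, and with Enza_Dex below for 0 members, against 4.77% and 7.93%. In LNCaPabl-Abi the groups did not overlap for 6 members with Abi_Dex above, against 6.26% of all genes, and for 1 member, ACAT2, with Abi_Dex below, against 6.01%. These responses share arrays with the comparisons of the lines. With DMSO, the Enza_Ctrl arrays enter both with the sign turned and the Abi_Ctrl arrays with the same sign. With dexamethasone, the Enza_Dex arrays enter both with the same sign and the Abi_Dex arrays with the sign turned.

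The intervals bound what could have been missed. With 11 arrays the 95% interval of the response lay between -1 and 1 on the log2 scale for 30 of 32 members in LNCaPabl-Enza and 28 of 32 in LNCaPabl-Abi. With 12 arrays it did so for 19 and 20 members. ELOVL7 had the widest, -1.53 to 1.04 in LNCaPabl-Enza and -1.57 to 0.73 in LNCaPabl-Abi. For the same pair of responses, which use separate arrays, 68.8% of members had the same sign, against 54.9% of all genes with 11 arrays and 50.2% with 12.

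**Figure D5:**
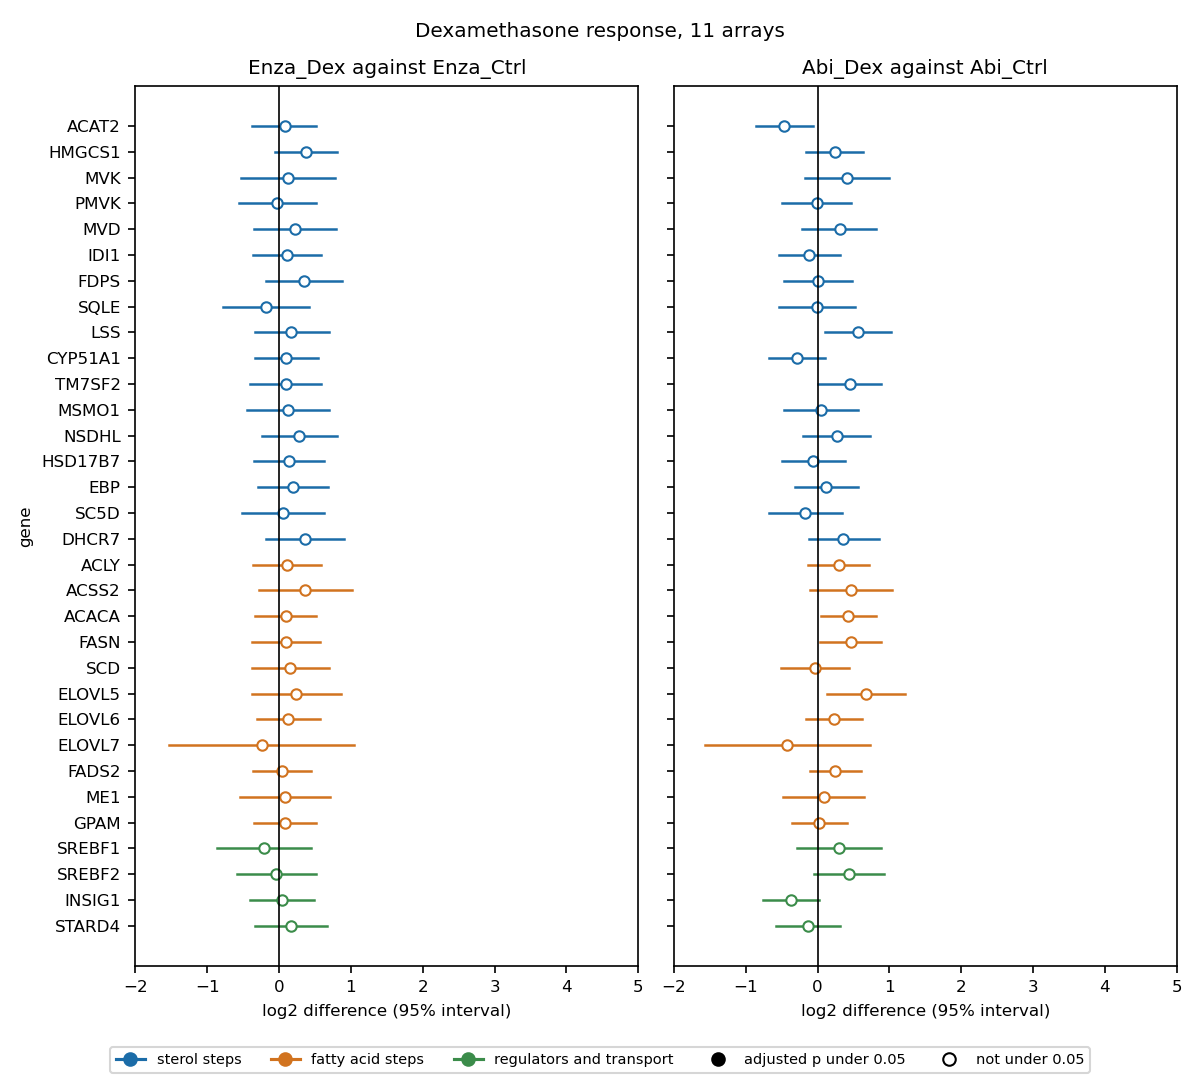
Dexamethasone response of each of the 32 members, fitted with 11 arrays, in LNCaPabl-Enza (left) and LNCaPabl-Abi (right), in log2 units with 95% intervals. No point is filled, since 0 members passed, and the intervals of 30 and 28 members stay between -1 and 1.

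Within LNCaPabl-Abi, LSS and ELOVL5 had the highest responses of their groups. LSS had 10.55, 10.33 and 10.39 in Abi_Dex, against 10.22, 9.60 and 9.74 in Abi_Ctrl, without overlap. The difference of 0.57 had an adjusted p of 0.619 with 11 arrays. ELOVL5 had 14.45, 14.24 and 14.71 in Abi_Dex, against 13.46, 13.46 and 14.46 in Abi_Ctrl, with overlap and a difference of 0.67 (adjusted p = 0.620). ACAT2 had the lowest response of the sterol steps, with 9.45, 9.33 and 8.90 in Abi_Dex, against 9.73, 9.81 and 9.53 in Abi_Ctrl. Each Abi_Dex array was lower, but the difference of -0.46 did not pass (adjusted p = 0.660). INSIG1 had a difference of -0.37 (adjusted p = 0.722) and ELOVL7 of -0.42 (adjusted p = 0.895), both with overlapping groups. SREBF2 had 11.01, 11.13 and 11.05 in Abi_Dex, against 10.85, 10.01 and 11.02 in Abi_Ctrl, overlapping, with a difference of 0.44 (adjusted p = 0.726).

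Within LNCaPabl-Enza the highest responses with 12 arrays were those of members that were low on Enza_Ctrl replicate 2. SREBF2 had a response of 2.18 with 12 arrays and -0.04 with 11, HSD17B7 of 1.5 and 0.14, and ACSS2 of 1.35 and 0.36. HMGCS1 had the highest response of the sterol steps with 11 arrays, 0.38 (adjusted p = 1.00), against 0.44 with 12 (adjusted p = 0.523), and its Enza_Dex arrays lay above all Enza_Ctrl arrays. INSIG1 had 13.00, 13.32 and 13.03 in Enza_Dex, against 13.09, 12.60 and 13.05 in Enza_Ctrl, which overlapped. Its difference was 0.20 with 12 arrays, with an interval of -0.30 to 0.71, and 0.04 with 11, with an interval of -0.40 to 0.48. Low responses with 12 arrays were those of SC5D (-0.06), GPAM (-0.06), the acyltransferase that starts glycerolipid synthesis, and STARD4 (-0.11), none of which was called. GPAM had 8.23, 8.06 and 8.48 in Enza_Dex and 8.13, 8.60 and 8.23 in Enza_Ctrl, against 8.23, 8.26 and 8.08 in Abi_Dex and 8.38, 7.96 and 8.15 in Abi_Ctrl, mixed throughout. SC5D had 10.92, 11.14 and 10.61 in Enza_Ctrl, against 10.47, 11.26 and 10.34 in Abi_Ctrl, also mixed.

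The responses of the lines were set against each other directly. Of the differences between the responses, Enza minus Abi, limma called 0 of 32 members with 12 or with 11 arrays, where 0.0% of all genes were called. In either set 0 members had an unadjusted p under 0.05, against 266 of all 17687 genes with 12 arrays and 566 with 11. With 12 arrays the median was 0.21 for the sterol steps and -0.02 for the fatty acid steps, against 0.04 over all genes. With 11 arrays these medians were 0.06 and -0.10, against 0.00 over all genes. ACAT2 then had the highest value, 0.54, with an interval of -0.06 to 1.13, and INSIG1 had 0.41, with an interval of -0.18 to 1.00. SREBF2 turned from 1.74 with 12 arrays to -0.48 with 11. Intervals of 21 of 32 members stayed between -1 and 1 with 11 arrays and of 16 with 12, so larger differences in response remained possible for the others.

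The other genes of the pathway gave a mixed picture. Of 46 further genes of sterol regulation, sterol transport and fatty acid metabolism, 32 were measured, and with 12 arrays 0 were called in any comparison. With 11 arrays, 1 was called higher and 1 lower in each comparison of the lines, where 0.752% of all genes were called higher and 1.53% lower with dexamethasone, and 0.334% higher and 0.956% lower with DMSO. Their median difference was 0.01 with dexamethasone, and with DMSO it was -0.31 with 12 arrays, with 24 of 32 negative, and 0.01 with 11. ABCG1, an exporter of cholesterol induced by oxysterols, was the lower gene in both. It had 9.0, 9.02 and 8.36 in Enza_Dex, against 10.23, 10.58 and 10.17 in Abi_Dex, and 9.34, 6.54 and 8.85 in Enza_Ctrl, against 10.51, 10.29 and 10.61 in Abi_Ctrl. Neither pair of groups overlapped. With dexamethasone the difference was -1.53 (0.346-fold), with an adjusted p of 0.860 with 12 arrays and 0.0012 with 11. With DMSO it was -2.23 with 12 arrays (0.213-fold, adjusted p = 0.214) and -1.38 with 11 (0.386-fold, adjusted p = 0.00967).

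ACSL4, which activates arachidonate for use in phospholipids, was the gene called higher with dexamethasone. It had 8.41, 8.24 and 8.44 in Enza_Dex, against 7.39, 6.95 and 6.17 in Abi_Dex, a difference of 1.53 (2.89-fold, adjusted p = 0.343 with 12 arrays and 0.0104 with 11). ELOVL3, an elongase of saturated fatty acids, was the gene called higher with DMSO. It had 6.79, 6.79 and 6.20 in Enza_Ctrl, against 5.64, 5.26 and 5.49 in Abi_Ctrl, a difference of 1.13 with 12 arrays (2.18-fold, adjusted p = 0.0865) and 1.03 with 11 (2.04-fold, adjusted p = 0.0287). In both genes the groups did not overlap.

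NPC1, which exports cholesterol from lysosomes, was the one gene of these lists called for dexamethasone, in LNCaPabl-Abi with 11 arrays, where 0.141% of all genes were called. It had 11.43, 11.20 and 11.10 in Abi_Dex, against 9.97, 9.45 and 9.57 in Abi_Ctrl, a clear separation. The difference of 1.58 ± 0.20 (SE with 11 arrays), or 2.99-fold, had an adjusted p of 0.00222 with 11 arrays. With 12 arrays, where NPC1 was at 6.16 on Enza_Ctrl replicate 2, the SE was 0.87 and the adjusted p 1.00. In LNCaPabl-Enza it had 10.96, 11.06 and 10.92 in Enza_Dex, against 10.66, 6.16 and 10.08 in Enza_Ctrl. The difference there was 2.01 with 12 arrays (4.04-fold, adjusted p = 0.523) and 0.61 with 11 (1.53-fold, adjusted p = 1.00), neither of which was called. The difference between the responses, Enza minus Abi, was 0.43 with 12 arrays (adjusted p = 0.892) and -0.97 with 11 (adjusted p = 0.999), so its direction rested on Enza_Ctrl replicate 2.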

How the data were processed

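Each of 12 total RNA samples was prepared with the WT PLUS kit and read on a single-colour Affymetrix array, according to the labels. The table deposited by the authors holds a log2 value for every probe set on every array. Expression Console (Affymetrix), limma and RMA are listed in the submitters' processing notes. The genome build is not given in the sources used here. Of 24351 rows, 17709 had 1 gene symbol in the platform annotation, 6642 had none here, and 20 symbols had several rows, of which the brightest was kept, leaving 17687 genes. The highest Pearson r between arrays was 0.994, so none was a copy.

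Groups came from the sample titles. A model of 4 group means was fitted with limma 3.58.1 (eBayes after lmFit; R 4.3.3, statmod 1.5.0) to all genes of 12 arrays, and again without Enza_Ctrl replicate 2, and the script was tested on simulated data. Adjusted p-values are Benjamini-Hochberg over all 17687 genes, called under 0.05. Genes named with every array are members called in any comparison, the highest and lowest member of each list with 12 arrays, SREBF1, SREBF2 and INSIG1, and called genes of the other pathway list; further members are named by their differences, chosen after their values were seen. The members and lists were chosen with earlier results of these data known. The number of arrays limits precision. Alternatives were each array left out, a replicate block, array weights, other normalizations, a filter on dim genes, another variance model, another row choice and fits to only the groups compared. Printing each result without Enza_Ctrl replicate 2, leaving out a further array, and dividing the sterol pathway were added after seeing the data. Promoter windows are RefSeq's, GRCh38.p14.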

Additional observations from a re-analysis of the deposited data

How the results depend on the processing

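Directions held more firmly than calls: of 60 named differences, 49 kept their sign under all 16 alternatives. Enza_Ctrl replicate 2 decided most of the rest. Between the lines with DMSO, HSD17B7 (-1.32 to 0.85 over arrays left out) turned to 0.85 without that array, 0.94 with the replicate block on 11 arrays and 0.82 with array weights, SREBF1 (-0.76 to 0.70) to 0.70, 0.54 and 0.49 (0.02 after quantile normalization anew) and SREBF2 (-2.58 to 0.82) to 0.82, 0.75 and 0.61. Without Enza_Ctrl replicate 1, CYP51A1 turned to -0.03 (up to 0.48 over arrays left out) and ACSS2 to -0.43 (up to 1.34). With dexamethasone, LSS turned to -0.08 (up to 0.27) and TM7SF2 to -0.01 (up to 0.15) without Enza_Dex replicate 2. The response of LNCaPabl-Enza turned to -0.02 for INSIG1 after quantile normalization and to -0.04 (up to 3.36) for SREBF2 without Enza_Ctrl replicate 2. The difference between responses turned to -0.48, -0.40 and -0.27 for SREBF2 (up to 2.92) and to -0.97, -0.94 and -0.90 for NPC1 (up to 1.28) under the same 3 settings as HSD17B7. Causes were not tested beyond what leaving an array out shows.

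Counts moved as follows. For the lines with DMSO, 303 genes and 12 members were called with the replicate block on 11 arrays, 252 and 10 with array weights, and 0 genes in the fit to only the groups compared. Members called there were 2 after quantile normalization and 1 each after median centring, with the dimmest genes left out, and with trend and robust eBayes. Counts over all genes are not given here for these settings, so these member counts have no background beside them. The sterol median was 0.78 with the block on 11 arrays and 0.85 after quantile normalization, and the fatty acid median 0.40, 0.38 with array weights and 0.46. With dexamethasone, 540 genes and 14 members were called with the block on 11 arrays and 767 and 16 with array weights. The fit to only the groups compared called 502 and 15. The replicate block on 12 arrays called 1 member and quantile normalization 2, and the counts over all genes for these settings are not given here. For dexamethasone in LNCaPabl-Abi the counts of genes were 39, 37 and 22 with the block on 11 arrays, array weights and only the groups compared. The sterol median in LNCaPabl-Enza was 0.12 with the block on 11 arrays and with array weights and 0.05 after quantile normalization. For the difference between responses, 1 gene was called with the block on 11 arrays, and the sterol median was -0.07 after quantile normalization. Between the groups compared, deviations of same-numbered arrays from their group means had correlations of 0.06 to 0.3 with 11 arrays. With 12 arrays these were 0 to 0.3. What arrays of the same number share is not described.

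Leaving out each array in turn gave these ranges. For the lines with DMSO they were 11 to 228 genes, 0 to 9 members, a sterol median of 0.37 to 0.72 and a fatty acid median of 0.11 to 0.44. With dexamethasone they were 12 to 403 genes, 0 to 14 members, and medians of 0.76 to 0.91 and 0.19 to 0.28. The responses gave 0 to 25 genes, and medians of 0.00 to 0.17 and 0.23 to 0.34, in LNCaPabl-Abi, and 0 to 1 genes, 0.13 to 0.54 and 0.10 to 0.35 in LNCaPabl-Enza. Their difference had medians of 0.06 to 0.30 and -0.10 to 0.13.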

Other observations

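Within a group, some arrays were lower than others for many of these genes, but the sterol and fatty acid steps did not always move together. Enza_Ctrl replicate 3 lay below Enza_Ctrl replicate 1 for 29 of 32 members, against 51.4% of all genes. Enza_Ctrl replicate 2 was the lowest of its group for 22 of 32 members (48.7% of all genes) and Enza_Dex replicate 3 for 19 (32.3%). The same held for Abi_Dex replicate 3 for 17 (37.3%) and Abi_Ctrl replicate 2 for 18 (36.3%). The medians of the sterol steps, each gene taken relative to its mean in Abi_Ctrl, were 0.75, 1.01 and 0.79 in Enza_Dex and 0.88, 0.42 and 0.61 in Enza_Ctrl, against 0.15, 0.20 and -0.15 in Abi_Dex and 0.05, -0.06 and -0.02 in Abi_Ctrl. Every Enza array thus had a sterol median above every Abi array, Enza_Ctrl replicate 2 included. For the fatty acid steps the same medians were 0.64, 0.52 and 0.43 in Enza_Dex and 0.51, 0.14 and 0.37 in Enza_Ctrl, against 0.37, 0.22 and 0.28 in Abi_Dex and 0.00, -0.21 and 0.18 in Abi_Ctrl. Here the lines overlapped, with Enza_Ctrl replicate 2 below all 3 Abi_Dex arrays and Abi_Ctrl replicate 3.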
